A study of Mus musculus with 130 samples.

Results

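Livers of iron-fed inbred mouse strains were split by the transcript level of Dbp, a transcription factor gene whose RNA swings widely over the day under the circadian clock. In the panel table of transcripts per 1000000 (TPM), 113 strains with 1 male mouse each were ranked by Dbp, and the 20 highest strains were compared with the 20 lowest. The remaining 73 strains were in neither group. Each mouse had chow for 4 weeks and then, for 6 weeks, a diet with 2% carbonyl iron (20000 ppm), per the labels and the series' design text. The whole panel holds 115 livers of 114 strains. The second mouse labelled 129X1/SvJ and the library labelled BXD65/RwwJ were left out of the ranking. A separate diet study of 15 male C57BL/6J mice on 5 diets completed the 130 samples of the series.

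The high-Dbp group held 12 BXD strains, 4 AXB/BXA strains, 1 CXB strain (CXB12/HiAJ) and the inbred strains C57BLKS/J, DBA/2J and CBA/J. The low-Dbp group held 8 BXD strains, 5 AXB/BXA strains, 2 BXH strains and the inbred strains C57L/J, BTBR T<+> tf/J, NZB/BlNJ, NON/ShiLtJ and NOD/ShiLtJ. Of its BXD strains, 1 is labelled BXD24/TyJ-Cep290<rd16>/J, a name that includes the rd16 allele of the gene Cep290. BXD, AXB/BXA, BXH and CXB are families of recombinant inbred lines, each bred from a pair of founder strains. The labels give no hour of collection, date, batch, feeding state or age. With 1 mouse per strain, the hour of collection, the feeding state and the genotype cannot be told apart for a strain, and p-values measure the spread between strains. The groups are therefore called high-Dbp and low-Dbp strains here, not clock phases.

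The mammalian clock is a loop of transcription. The activators BMAL1 (gene Arntl) and CLOCK or NPAS2 bind E-box elements and drive the Per, Cry, Nr1d and Dbp genes, and PER and CRY proteins then block the activators. The REV-ERB receptors (Nr1d1, Nr1d2) repress Arntl, Npas2, Cry1 and Nfil3 through ROR elements, and DBP, TEF and HLF activate D-box elements that NFIL3 represses. In liver, these factors pass the daily rhythm on to cholesterol, bile acid, glucose and drug metabolism, on which feeding also acts directly.

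Dbp (ENSMUSG00000059824, GRCm38 chr7:45705088-45710203, plus strand) is the gene the groups were chosen by, on its TPM, so its values are a description. Its level ran from 114 to 180 TPM in the high-Dbp strains (median 130) and from 0.540 to 19.2 TPM in the low-Dbp strains (median 7.72). Over all 113 strains the median was 65.6 TPM. At the upper edge, BXD1/TyJ with 114.2 TPM was the last strain inside and I/LnJ with 113.4 TPM the first outside. At the lower edge, BXA12/PgnJ with 19.2 TPM was inside and FVB/NJ with 20.1 TPM outside. The low group was much more spread: AXB5/PgnJ (0.540 TPM) and BXA13/PgnJ (0.965 TPM) were its lowest, followed by NOD/ShiLtJ (1.87 TPM) and BXH8/TyJ (2.07 TPM), while the high group formed the flat end of the curve. Counts behind these values were 1767 to 3193 per library in the high group and 4.84 to 383.6 in the low group.

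**Figure D1:**
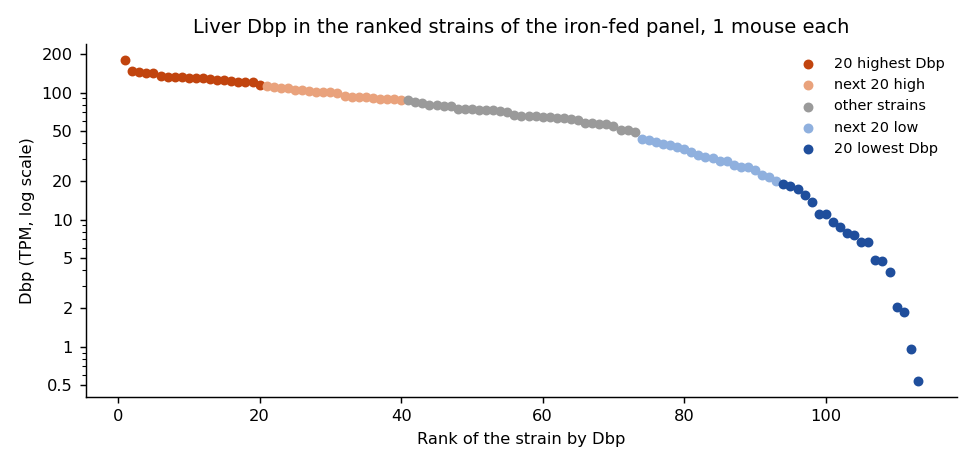
Dbp level (TPM, log scale) of each ranked strain against its rank, 1 point per mouse, coloured by set. The curve is flat among the 20 highest strains (114 to 180 TPM) and steep among the 20 lowest (0.540 to 19.2 TPM).

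The 3' end of Dbp overlaps the antisense gene Sphk2 between positions 45709467 and 45710203. Sphk2, a sphingosine kinase gene, ranged from 20.6 to 50.9 counts per 1000000 (CPM, scaled with TMM factors) in the high group (median 37) and from 19.8 to 75.6 CPM in the low group (median 44.8). It did not pass the test (log2 difference, high minus low, -0.27, adjusted p = 0.0848). The ranking by CPM kept 19 of the 20 high and 19 of the 20 low strains. Ranking by the deviation from the family median kept 15 high and 20 low strains.

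To set the levels beside the elements named above, the 250 bases before the RefSeq transcription start (GRCm38.p6) were searched on both strands for the E-box CACGTG, the D-box TTATGTAA and the ROR element core TAGGTCA, which do not overlap one another. They occur in 6.02%, 0.819% and 2.23% of 32851 promoters, respectively. Of 19 clock genes (Dbp included), 16 had an entry. E-boxes were found for Per1, Cry1, Ciart, Bhlhe41 and Tef, D-boxes for Per3 and a ROR element core for Nfil3. A match is only a description of the letters in this window. The promoters shown belong to genes of different loops whose levels are compared next, with the motifs in capitals. Ciart, on the minus strand (chr3:95882229-95882478), has 3 E-boxes, beginning 116, 58 and 44 bases before the start. Cry1, on the minus strand (chr10:85185055-85185304), has 1 E-box, beginning at 60 bases. Per3, on the minus strand (chr4:151044666-151044915), has D-boxes beginning at 205 and 158 bases. Nfil3, on the minus strand (chr13:52981040-52981289), has the ROR element core on the opposite strand, printed as TGACCTA, beginning at 12 bases.
Ciart promoter: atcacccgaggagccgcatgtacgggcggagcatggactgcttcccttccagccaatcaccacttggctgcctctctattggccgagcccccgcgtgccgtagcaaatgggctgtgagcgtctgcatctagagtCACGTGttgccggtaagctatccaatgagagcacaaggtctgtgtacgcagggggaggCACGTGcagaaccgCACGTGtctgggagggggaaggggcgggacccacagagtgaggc
Cry1 promoter: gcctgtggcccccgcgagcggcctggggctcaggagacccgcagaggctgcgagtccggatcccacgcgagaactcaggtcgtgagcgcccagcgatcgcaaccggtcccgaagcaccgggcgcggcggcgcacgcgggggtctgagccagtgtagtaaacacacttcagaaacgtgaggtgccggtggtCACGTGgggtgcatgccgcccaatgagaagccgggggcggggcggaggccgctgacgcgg
Per3 promoter: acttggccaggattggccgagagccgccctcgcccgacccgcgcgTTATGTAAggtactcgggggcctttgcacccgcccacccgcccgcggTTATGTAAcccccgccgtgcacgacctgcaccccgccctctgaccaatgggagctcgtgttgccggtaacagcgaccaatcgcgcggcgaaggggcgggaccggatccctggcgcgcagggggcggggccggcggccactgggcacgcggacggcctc
Nfil3 promoter: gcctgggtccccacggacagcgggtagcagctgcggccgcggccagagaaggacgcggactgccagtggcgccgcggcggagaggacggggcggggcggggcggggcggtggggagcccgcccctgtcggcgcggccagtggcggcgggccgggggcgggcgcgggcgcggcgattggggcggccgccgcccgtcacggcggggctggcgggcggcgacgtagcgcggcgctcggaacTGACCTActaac

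Library totals ran from 10.6 to 14.5 M counts (1 M is 1000000 counts) in the high-Dbp group and from 10.2 to 15.4 M in the low-Dbp group. The labelled tissue carried its defining transcripts in both: the summed level of 8 hepatocyte markers was 84532 to 124091 CPM in high-Dbp and 70549 to 168444 CPM in low-Dbp strains. One gene, Klf10, took 18.6% to 34.2% of all TPM over the ranked strains, with a median of 25.6% in the high and 30.8% in the low group. Whether a share this large is a true level or comes from the quantification was not tested. It enters every TPM value, the Dbp ranking included, so counts with TMM scaling are used from here on. Ranking by TPM with Klf10 left out, a setting chosen after seeing the data, kept 20 high and 19 low strains.

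A large part of the liver transcriptome differed between the groups. Of 13100 genes tested, 5046 (38.5%) were called at an adjusted p under 0.05 by edgeR's quasi-likelihood test with Benjamini-Hochberg adjustment, the test behind every adjusted p below unless another is named. Of these, 2311 (17.6% of the genes tested) were higher in the high-Dbp strains and 2735 (20.9%) lower. A change of over 2-fold was seen for 512 of the called genes. The median log2 difference over all genes was -0.02.

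The balance of directions depended on the scale. Higher genes made up 45.8% of the calls from counts, but 69.3% of the 3614 calls (27.6%) from limma on log2(TPM + 1), where the median over all genes was 0.04. With a pseudocount of 0.1 the share was 69.8%. With Klf10 left out of the TPM it was 56.5% of 3705 calls.

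Of 18 clock genes on 4 lists, 17 had enough counts to be tested. In the high-Dbp strains 9 rose and 4 fell (against 17.6% and 20.9% of all genes), and 4 did not pass. The median log2 difference of the 17 was 0.33. Activators and Nfil3 fell with Cry1, while the other called members rose. The plot of clock genes by group shows 17 of these genes in all 40 strains.

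**Figure D2:**
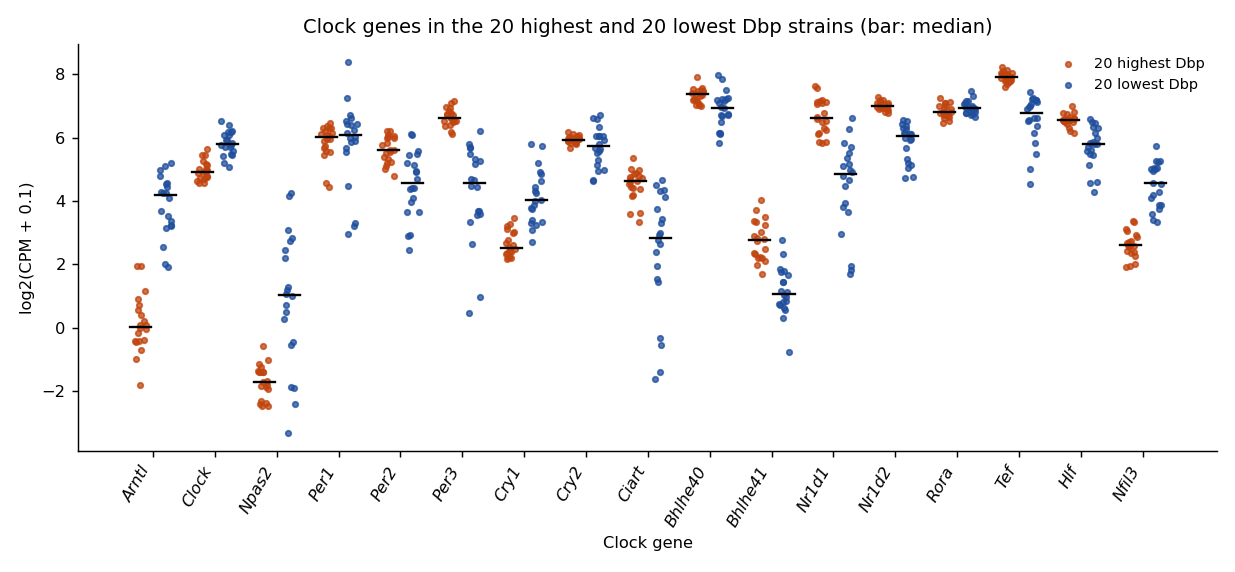
Level of 17 of the 18 clock genes, as log2(CPM + 0.1), in the 20 high-Dbp and 20 low-Dbp strains, 1 point per mouse, with the group median as a bar. Nr1d2 and Tef do not overlap between the groups, and the low-Dbp points are more spread for most genes.

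The activators were lower where Dbp was high. Arntl, which encodes BMAL1, ranged from 0.185 to 3.77 CPM in the high-Dbp strains (median 0.918) and from 3.64 to 36.7 CPM in the low-Dbp strains (median 18). Only 1 low-Dbp strain lay within the high range and 2 high-Dbp strains within the low range. The log2 difference was -3.80 ± 0.31 (SE; adjusted p = 5.22e-12). Clock, the partner of BMAL1, ranged from 23.4 to 50.0 CPM (median 30.4) against 33.6 to 92.3 CPM (median 55.5), with a smaller log2 difference of -0.89 ± 0.11 (adjusted p = 6.90e-08). Its groups overlapped, with 6 strains of each inside the range of the other.

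Npas2, the paralog that can replace CLOCK, was below the count filter. It stood at 0.0806 to 0.565 CPM in the high-Dbp strains (median 0.206) and at 0 to 19 CPM in the low-Dbp strains (median 1.95). Without the filter its log2 difference was -4.11 ± 0.54 (adjusted p = 3.65e-07). The high values came from part of the low group, led by BXA13/PgnJ and AXB5/PgnJ, and 3 low-Dbp strains lay within the high range.

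Among the repressors, Per3 differed most in the direction of Dbp. Per3 ranged from 69.1 to 142.4 CPM in high-Dbp strains (median 97.8) and from 1.28 to 73.5 CPM in low-Dbp strains (median 23.5). A single low-Dbp strain and 2 high-Dbp strains lay inside the other group's range, and the log2 difference was 1.86 ± 0.29 (adjusted p = 5.28e-06). Per2 ranged from 27.8 to 73.9 CPM (median 49.2) against 5.41 to 68.8 CPM (median 23.6), a log2 difference of 0.83 ± 0.23 (adjusted p = 0.00489). Per1, the Per gene most readily induced by outside signals, did not pass: 21.5 to 88.8 CPM (median 64.5) against 7.75 to 333.0 CPM (median 68.6), with a log2 difference of -0.38 ± 0.29 (adjusted p = 0.306). All 20 high-Dbp strains lay inside the wide low-Dbp range of Per1.

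The cryptochromes parted. Cry1, which encodes a strong repressor of the activators, was lower in the high-Dbp strains, at 4.4 to 11 CPM (median 5.57) against 6.35 to 55.9 CPM (median 16.1). Its log2 difference was -1.72 ± 0.22 (adjusted p = 1.65e-07), and 6 low-Dbp strains lay inside the high range. Cry2 was not called, at 50.9 to 72.1 CPM (median 61.3) against 24.6 to 106 CPM (median 53.9), with a log2 difference of 0.09 ± 0.14 (adjusted p = 0.647).

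The 3 remaining repressors act on E-boxes. Ciart, which encodes CHRONO, ranged from 10.01 to 41.4 CPM in high-Dbp strains (median 24.5) and from 0.225 to 25.3 CPM in low-Dbp strains (median 7.06), a log2 difference of 1.36 ± 0.35 (adjusted p = 0.0024). Bhlhe41 (DEC2) ranged from 3.12 to 16.4 CPM (median 6.71) against 0.490 to 6.74 CPM (median 1.99), a log2 difference of 1.56 ± 0.22 (adjusted p = 1.56e-06). Both overlapped between the groups, with 7 and 5 low-Dbp strains inside the high range. Bhlhe40 (DEC1) was close to the threshold, at 127 to 242 CPM (median 166) against 56.6 to 254 CPM (median 124). Its log2 difference of 0.33 ± 0.13 (adjusted p = 0.0465) lost its call in 26 of the 40 fits that left out 1 strain.

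In the nuclear receptor loop, both REV-ERB genes were higher and Rora, which encodes an opposing activator, did not pass. Nr1d1 (REV-ERB alpha) ranged from 56.7 to 199 CPM in high-Dbp strains (median 98.6) and from 3.13 to 99.5 CPM in low-Dbp strains (median 28.9), a log2 difference of 1.76 ± 0.31 (adjusted p = 2.85e-05). Nr1d2 (REV-ERB beta) ranged from 110 to 155 CPM (median 128) against 26.3 to 93.6 CPM (median 66.1), with a log2 difference of 1.06 ± 0.13 (adjusted p = 4.32e-08). The groups did not overlap for Nr1d2, whereas 3 low-Dbp strains reached the high range of Nr1d1. Rora ranged from 88.6 to 154 CPM (median 111) against 99.8 to 178 CPM (median 123), a log2 difference of -0.13 (adjusted p = 0.12).

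The relatives of Dbp moved with it and their antagonist moved against it. Tef ranged from 194 to 300 CPM in high-Dbp strains (median 245) and from 23.3 to 175 CPM in low-Dbp strains (median 110), with no overlap and a log2 difference of 1.2 ± 0.16 (adjusted p = 3.75e-07). Hlf ranged from 70.8 to 128 CPM (median 94.1) against 19.6 to 96.9 CPM (median 55.9), a log2 difference of 0.73 ± 0.14 (adjusted p = 9.36e-05). Nfil3, the D-box repressor, was lower, at 3.67 to 10.2 CPM (median 5.98) against 9.91 to 53.8 CPM (median 23.5). Its log2 difference was -2.02 ± 0.19 (adjusted p = 8.04e-11), with 1 low-Dbp and 2 high-Dbp strains inside the other range.

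Of 10 genes that modify clock proteins, 2 rose and 3 fell (against 17.6% and 20.9% of all genes), with a median log2 difference of -0.10 against -0.02 over all genes. Usp2, a clock-driven ubiquitin protease, rose by a log2 difference of 1.40 and Btrc, an F-box protein that targets PER proteins, by 0.35. Ube2o fell by 0.49, and the kinase genes Csnk1d and Gsk3b each fell by 0.19. By limma on log2(TPM + 1), 3 of the 10 were called higher and 0 lower.

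The low-Dbp strains were not alike in their clock genes. The SD of log2 CPM was wider in the low-Dbp group for 16 of the 17 tested clock genes (94.1%, median SD 0.79 against 0.36), the exception being Rora. Over all genes tested it was wider in the low group for 83% (median SD 0.39 against 0.25). Ciart had an SD of 1.90 in the low and 0.51 in the high group, Per3 1.53 and 0.28, and Nr1d1 1.43 and 0.56.

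Individual low-Dbp strains, picked after their values were seen, combined the clock genes differently. BXD38/TyJ, with Dbp at 3.84 TPM, had Cry1 at 55.9 CPM, Nr1d1 at 3.45 CPM, Per1 at 76.0 CPM and Ciart at 6.10 CPM. BXH8/TyJ (Dbp 2.07 TPM) was close to it, with Cry1 at 53.5 CPM, Nr1d1 at 3.75 CPM, Per1 at 71.5 CPM and Ciart at 7.43 CPM. In these strains Cry1 was at the top of its range and Nr1d1 at the bottom. C57L/J (Dbp 11 TPM) had the reverse, with Cry1 at 6.35 CPM, Nr1d1 at 99.5 CPM, Per1 at 7.75 CPM and Ciart at 0.697 CPM. BXD29/Ty (Dbp 9.55 TPM) resembled C57L/J, with Cry1 at 10.04 CPM, Nr1d1 at 77.0 CPM, Per1 at 9.13 CPM and Ciart at 0.581 CPM. All 4 had high Arntl: 36.7, 27.8, 18.9 and 18.9 CPM in the order named.

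AXB5/PgnJ and BXA13/PgnJ, the strains with least Dbp, also had the lowest Per3 (1.28 and 1.87 CPM) and Ciart (0.225 and 0.280 CPM) and the highest Npas2 (17.7 and 19 CPM). Their Arntl was 31.6 and 34.2 CPM. Their Nr1d1, at 22.4 and 56.7 CPM, lay inside the range of the other low-Dbp strains. At the other edge of the group, BXA12/PgnJ, AXB19a/PgnJ and BXD21/TyJ, with Dbp of 19.2, 18.5 and 17.5 TPM, had the 3 lowest Arntl levels of the low group, at 3.64, 5.73 and 3.95 CPM. The plot of clock genes against Dbp shows these strains beside the rest of the ranking.

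**Figure D3:**
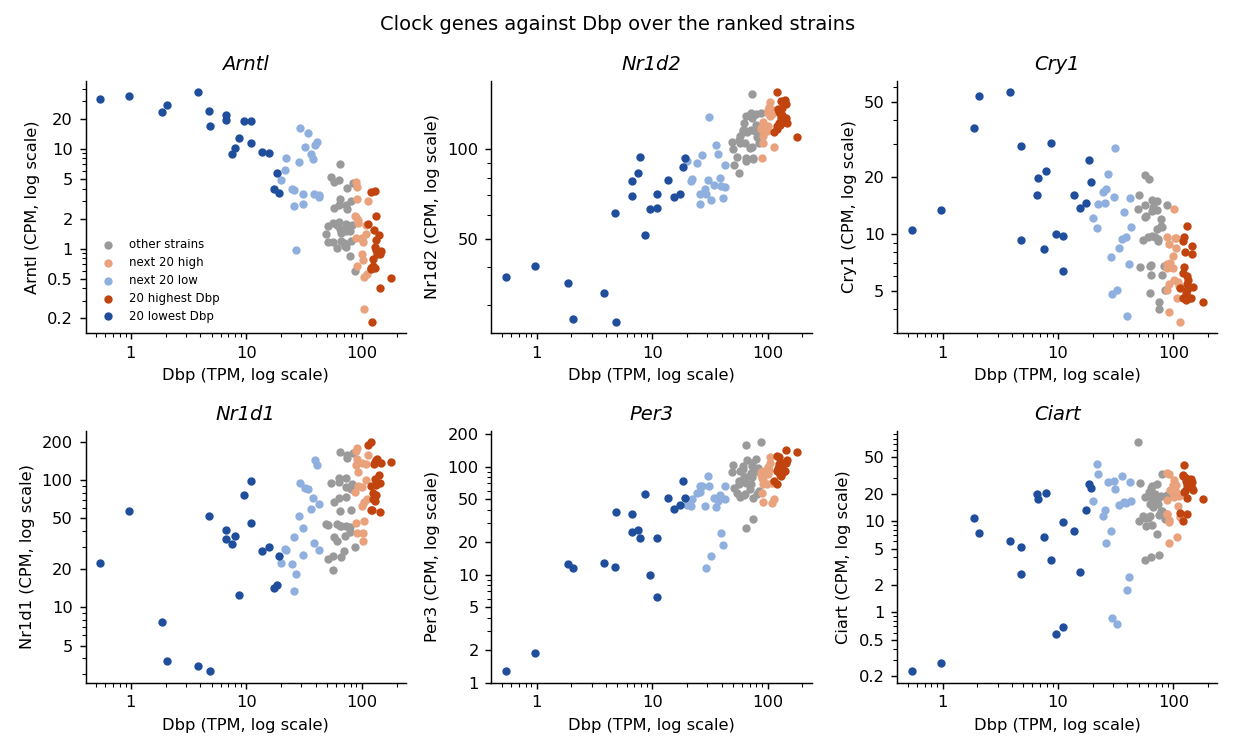
Arntl, Nr1d2, Cry1, Nr1d1, Per3 and Ciart (CPM, log scale) against Dbp (TPM, log scale) in the 113 ranked strains, 1 point per mouse. Arntl falls along the whole range of Dbp, while Nr1d1 and Ciart fan out among the 20 lowest strains (Nr1d1 3.13 to 99.5 CPM, Ciart 0.225 to 25.3 CPM).

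For 21 of 13100 genes (0.16%), every high-Dbp strain lay on one side of every low-Dbp strain: 11 higher (0.084%) and 10 lower (0.0763%). Nr1d2 and Tef are the clock genes among them. The others lower in the high group were Cdkn1a, Insig2, Slc45a3, Arl4a, Desi2, Btg1, Pnrc1, Zbtb21, Oser1 and Nrbf2, and the others higher were Vwce, Rnf19b, Fnip2, Jade1, Azin1, Acy3, Hes6, Slc5a6 and Mcm10. These genes were singled out by their values in this comparison.

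Cdkn1a, which encodes the cell cycle inhibitor p21, ranged from 0.833 to 17.3 CPM in high-Dbp strains (median 3.42) and from 21.2 to 227 CPM in low-Dbp strains (median 96.8). Its log2 difference was -4.52 ± 0.34 (adjusted p = 5.54e-13). Insig2, whose product holds back the processing of SREBP factors, ranged from 45.6 to 230 CPM (median 117) against 245 to 850 CPM (median 453), a log2 difference of -1.96 ± 0.17 (adjusted p = 1.71e-11). The lowest low-Dbp strain of Insig2 was thus only just above the highest high-Dbp strain. Slc45a3, a sugar transporter gene, ranged from 10.5 to 23.5 CPM (median 15) against 23.7 to 109 CPM (median 47.3), a log2 difference of -1.79 ± 0.15 (adjusted p = 1.69e-11). Slc5a6, a vitamin transporter gene, was higher, at 16.2 to 40.7 CPM (median 21.9) against 4.51 to 11 CPM (median 8.01). Its log2 difference was 1.56 ± 0.11 (adjusted p = 3.91e-13). Mcm10, a DNA replication factor gene, ranged from 11.9 to 66.7 CPM (median 24.1) against 1.77 to 11.8 CPM (median 5.18), a log2 difference of 2.42 ± 0.22 (adjusted p = 4.76e-11).

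The same question was asked in strains that the extreme groups did not use. The next 20 strains below the high group had Dbp of 88.0 to 113 TPM (median 99.8), and the next 20 above the low group had 20.1 to 42.8 TPM (median 30.9). Of 13223 genes, 818 (6.19%) were called, 382 higher and 436 lower. Of these, 714 were also called between the extreme groups, where 38.5% of all genes were called. That is 87.3% of the 818 and 14.1% of the 5046, and 713 of the 714 had the same direction. By limma on log2(TPM + 1), 91.4% of 1018 calls (7.7%) were higher (930, or 7.03% of the genes), against 46.7% from counts. The exception in direction was Cyp3a41a, a cytochrome P450 gene with near-identical paralogs whose reads may be shared. It had a log2 difference of -2.65 between the extreme groups, lost without BTBR T<+> tf/J (adjusted p = 0.0801), and of 3.24 between the next groups (adjusted p = 0.0322).

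Among the clock genes, 5 rose and 4 fell of 17 in these strains (against 2.89% and 3.3% of all genes). Arntl ranged from 0.249 to 4.70 CPM in the next high strains (median 1.34) and from 0.969 to 16.1 CPM in the next low strains (median 5.51), a log2 difference of -1.96 ± 0.30 (adjusted p = 8.31e-05). Nr1d2 ranged from 93.0 to 143 CPM (median 119) against 65.4 to 128 CPM (median 78.3), a log2 difference of 0.56 ± 0.07 (adjusted p = 4.33e-07). Both overlapped here, unlike Nr1d2 in the extreme groups. Nfil3 fell by a log2 difference of 1.12 (adjusted p = 0.00028), Cry1 by 0.81 (adjusted p = 0.00727) and Clock by 0.33 (adjusted p = 0.0463). Per3 rose by 0.73 (adjusted p = 0.00758), Bhlhe41 by 0.72 (adjusted p = 0.0253), Tef by 0.39 (adjusted p = 0.0445) and Hlf by 0.37 (adjusted p = 0.0324). Nr1d1 narrowly missed, with a log2 difference of 0.82 (adjusted p = 0.0551), and Ciart had one of 0.13 (adjusted p = 0.846). Of the 21 genes with separate extreme groups, all had the same sign here and 20 were called (against 6.19% of all genes). The exception was Vwce (0.06, adjusted p = 0.724).

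Over the 73 strains in neither extreme group, the genes most like Dbp by Pearson's r of log2 CPM were Nr3c2 (0.78), the mineralocorticoid receptor gene, and Nr1d2 (0.75). Slc22a23 (0.68), Slc5a6 (0.67), Hectd3 (0.67), Azin1 (0.66), Ttc7 (0.65) and Eepd1 (0.65) followed. The most opposed were Desi2 (-0.76), Cdkn1a (-0.70), Tab2 (-0.67), Slc45a3 (-0.66), Arntl (-0.63), Baiap2 (-0.61), Arl4a (-0.60) and Net1 (-0.60). These strains share diet and table with the extreme groups, and the values are descriptions.

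Strain families were unevenly split, so the comparison was repeated with family as a covariate, which called 4365 genes (33.3%). Among BXD strains alone, 12 high against 8 low, 2209 of 13261 genes (16.7%) were called, 1134 higher (8.55%) and 1075 lower (8.11%). The other strains, 8 against 12, were fitted with family as a covariate. There 1468 of 13193 genes (11.1%) were called, 639 higher (4.84%) and 829 lower (6.28%). The 1 CXB strain and the 2 BXH strains had their family in 1 group only, so they added nothing to this difference. These fits share their samples with the full comparison. In the BXD strains 7 clock genes rose and 4 fell of 17 tested. In the others, 6 rose and 5 fell of 18, Npas2 included (log2 difference -4.46, adjusted p = 0.0193). Arntl differed by -3.37 in BXD (adjusted p = 1.68e-05) and by -4.37 in the others (adjusted p = 0.000253). Nr1d2 differed by 1.07 in both (adjusted p = 0.000234 and 0.0112). Per2 passed in neither (adjusted p = 0.0638 and 0.17), Ciart not in the others (adjusted p = 0.151), and Bhlhe40 in neither (adjusted p = 0.322 and 0.245) nor with the covariate (0.0818). The difference of the effect between BXD and other strains was called for 1 of 13100 genes (0.00763%), Sult3a1, with 979 genes at an unadjusted p under 0.05.

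The BXD lines segregate the alleles of their founders on chromosome 7 as elsewhere. Within 10 Mb of Dbp, 49 of 125 tested genes (39.2%) were called in the full comparison, beside 38.5% of all genes, and 25 of 124 (20.2%) in BXD strains alone, beside 16.7% of all genes.

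Strains with nearly the same name were not always on the same side. In CPM scaled over all 115 panel libraries, AXB19/PgnJ had Dbp at 134 TPM, Arntl at 2.11 CPM and Pdk4 at 3.36 CPM, and AXB19b/PgnJ had Dbp at 124 TPM, Arntl at 0.788 CPM and Pdk4 at 2.86 CPM. AXB19a/PgnJ, in the low group, had Dbp at 18.5 TPM, Arntl at 5.78 CPM and Pdk4 at 48.8 CPM. BXD48/RwwJ had Dbp at 15.6 TPM and BXD48a/RwwJ at 82.8 TPM. The BALB/cJ and BALB/cByJ mice were closer to each other, at 73.5 and 61.6 TPM. How far each set shares its genotype is not in the labels.

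The diet study gives mice of 1 strain, C57BL/6J, in which no strain difference enters. Dbp was 1.93, 1.19 and 5.37 TPM in the 3 mice on 2% iron, 38.8, 52.1 and 10.4 TPM with cellulose as the fiber source, 1.18, 34.7 and 4.75 TPM at 500 ppm, 24.1, 3.61 and 20.6 TPM at 50 ppm, and 2.51, 6.74 and 43.4 TPM on chow. Within a diet the highest mouse exceeded the lowest by 4.52-fold to 29.5-fold, and over all 15 mice by 44.2-fold. The C57BL/6J mouse of the panel had 63.9 TPM. Levels in the panel and the diet study come from separate tables and were not tested against each other.

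In these mice each gene was regressed on log2 Dbp within diet, which called 14 of 13559 genes (0.103%), 6 rising (0.0443%) and 8 falling (0.059%) with Dbp, and left 1212 at an unadjusted p under 0.05. Of the 14, 13 were also called between the extreme strain groups (against 38.5% of all genes), all 13 in the same direction. Per3 ranged from 2.34 to 48.7 CPM over the 15 mice (median 8.60) and rose by 0.81 ± 0.06 per log2 unit of Dbp (adjusted p = 3.27e-05). Tef ranged from 29.9 to 130 CPM (median 64.7) and rose by 0.29 ± 0.03 (adjusted p = 0.00129). Nr1d2 ranged from 36 to 100.3 CPM (median 69.6) and rose by 0.19 ± 0.02 (adjusted p = 0.00375). These 3 genes were called in every fit that left out 1 mouse, as was Slc45a3, which fell by 0.23 ± 0.02 (adjusted p = 0.00191).

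The other risers were Bhlhe40 (0.28, adjusted p = 0.00836), Wee1, a mitotic kinase gene (0.50, adjusted p = 0.0488), and Trib3, a stress-induced pseudokinase gene (0.25, adjusted p = 0.0316). Trib3 is the gene of the 14 not called between the strain groups, where its log2 difference was -0.32 (adjusted p = 0.331). Bhlhe40 lost its call without mouse 1 or 2 at 500 ppm or mouse 3 on chow. Of the falling genes, Pxmp4, Rfxank, Asap2, Loxl4, Lhx6 and Rnf144a had slopes of -0.18 to -0.39, and each of these 6 lost its call without at least 1 mouse, as did Wee1 and Trib3. Arntl did not pass, with a slope of -0.38 ± 0.08 (adjusted p = 0.105). Without mouse 2 at 500 ppm, which had Dbp at 34.7 TPM and Arntl at 14 CPM, it was called (adjusted p = 0.0209). In all, 4 clock genes rose and 0 fell of 18 tested. All 21 genes with separate strain groups had the same sign in the slope. Only 3 of them, Slc45a3, Tef and Nr1d2, were called (against 0.103% of all genes). Some of the other slopes were smaller than their SE, such as Acy3 (0.003 ± 0.030, adjusted p = 0.988) and Nrbf2 (-0.012 ± 0.023, adjusted p = 0.932).

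**Figure D4:**
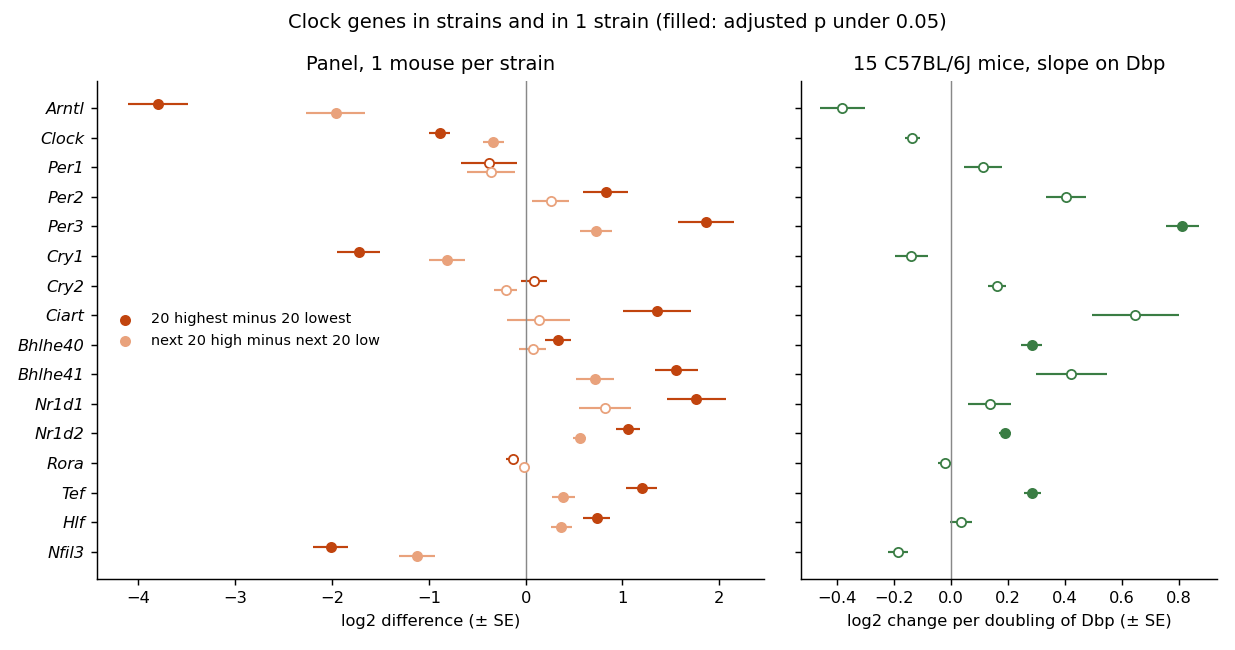
Log2 difference (± SE) of 16 clock genes between the extreme and the next strain groups, and, on its own axis, the log2 change per log2 unit of Dbp (± SE) over 15 C57BL/6J mice. Filled points passed at an adjusted p under 0.05, among them Per3, Nr1d2 and Tef in all 3 comparisons.

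Genes on the cholesterol synthesis list rose together in the high-Dbp strains: 23 of 23 tested were higher (against 17.6% of all genes), with a median log2 difference of 1.2. Insig2, which holds the pathway back and was on another list, fell by 1.96. Its paralog Insig1, a member of this list, was among the 23 that rose. Mvd, an enzyme of the mevalonate part of the pathway, ranged from 8.63 to 40.5 CPM in high-Dbp strains (median 19.6) and from 1.88 to 21.1 CPM in low-Dbp strains (median 4.76). With 4 low-Dbp strains inside the high range, the log2 difference was 1.84 ± 0.26 (adjusted p = 1.24e-06). Msmo1, a later enzyme that acts on sterols, ranged from 94.2 to 395 CPM (median 213) against 12.5 to 159 CPM (median 44), a log2 difference of 1.84 ± 0.28 (adjusted p = 3.09e-06). Idi1, which makes an isoprenoid precursor, rose by 1.61 (adjusted p = 0.000135). Between the next strain groups, 6 of 23 were called higher (against 2.89% of all genes), all 23 differences were positive and their median was 0.38. Among BXD strains 21 of 23 rose (against 8.55%) and among the other strains 9 (against 4.84%). In the diet study, 0 of the list were called and the median slope was 0.03.

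Lipogenesis genes were also higher: 11 of 14 rose (against 17.6% of all genes) and 0 fell, with a median of 0.67. Fasn, the fatty acid synthase gene, ranged from 562 to 3438 CPM in high-Dbp strains (median 1202) and from 121 to 2188 CPM in low-Dbp strains (median 383), a log2 difference of 1.42 ± 0.26 (adjusted p = 7.02e-05). Thrsp, a feeding-induced lipogenic gene, rose by 1.56, Srebf1, which encodes the insulin-responsive SREBP factor, by 1.18 and Elovl6, a fatty acid elongase, by 0.93. Acacb and Pnpla3 did not pass (0.21 and -0.50, adjusted p = 0.535 and 0.398). Between the next groups only Srebf1 of the 14 was called (0.56, adjusted p = 0.0171; 2.89% of all genes were higher). Among BXD strains and among the others 4 rose in each (against 8.55% and 4.84%).

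Of 12 bile acid genes, 5 rose (against 17.6% of all genes) and 0 fell, with a median of 0.40. Limma on log2(TPM + 1) called 8 of them higher (against 19.1%). Cyp7a1, the rate-limiting enzyme of bile acid synthesis and a classic target of DBP, ranged from 59.9 to 423 CPM in high-Dbp strains (median 175) and from 3.61 to 131 CPM in low-Dbp strains (median 25.4). Its log2 difference was 2.35 ± 0.36 (adjusted p = 4.29e-06), and 5 low-Dbp strains lay inside the high range. Cyp7b1 of the alternative pathway rose by 1.66, the uptake carriers Slco1b2 and Slc10a1 by 0.76 and 0.53, and Nr1h4, the bile acid receptor gene, by 0.41. Cyp8b1 did not pass (0.10, adjusted p = 0.81). Of the 12, 1 rose and 0 fell between the next groups (against 2.89% and 3.3% of all genes). The diet study called 0 of them, and 11 of the 12 slopes on Dbp were negative (median -0.03).

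Genes known as targets of DBP, TEF and HLF in drug and heme metabolism were mixed. Of 14, 6 rose and 2 fell (against 17.6% and 20.9% of all genes), with a median of 0.41. Cyp7a1, Ces2c, a carboxylesterase gene (1.71), and Aldh1a1, a retinal dehydrogenase gene (0.91), rose most. Por, the electron donor of cytochrome P450 enzymes, ranged from 255 to 814 CPM (median 442) against 118 to 1809 CPM (median 726.3) and fell by 0.72 (adjusted p = 0.0219). Fmo5, a flavin monooxygenase gene, fell by 0.59 (adjusted p = 0.0016). Alas1, the rate-limiting enzyme of heme synthesis, and Nr1i3, which encodes the receptor CAR, did not pass (0.18 and 0.04, adjusted p = 0.611 and 0.916). Of the 14, 1 rose and 1 fell between the next groups (against 2.89% and 3.3% of all genes). The diet study called 0 of them, and 11 of the 14 slopes on Dbp were negative (median -0.02).

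Other rhythmic liver genes moved in both directions, 6 higher and 10 lower of 24 (against 17.6% and 20.9% of all genes), with a median of -0.20. Insig2 and Slc45a3 fell as given above, and Lonrf3, a ubiquitin ligase gene, by 1.67. Upp2, a uridine phosphorylase gene with a strong daily rhythm, ranged from 189 to 680 CPM in high-Dbp strains (median 371.8) and from 12.6 to 268 CPM in low-Dbp strains (median 82.3), a log2 difference of 1.95 ± 0.29 (adjusted p = 2.36e-06). Between the next groups 2 rose and 4 fell (against 2.89% and 3.3%).

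Genes of the glucocorticoid and fasting response were lower in the high-Dbp strains: 15 of 20 fell (against 20.9% of all genes) and 1 rose, with a median of -1.0. Pdk4, a kinase that spares glucose in fasting, ranged from 2.45 to 8.69 CPM in high-Dbp strains (median 4.15) and from 8.10 to 383 CPM in low-Dbp strains (median 40.6). The groups touched only at their edge, and the log2 difference was -4.33 ± 0.44 (adjusted p = 8.30e-10). Igfbp1, an insulin-repressed gene, ranged from 13.4 to 127 CPM (median 44.7) against 67.0 to 2809 CPM (median 691), a log2 difference of -3.82 ± 0.40 (adjusted p = 2.10e-09). Of Igfbp1, 2 low-Dbp strains lay inside the high range, and the highest values of both genes were in BXD38/TyJ. Zbtb16, a glucocorticoid-induced gene, fell by 1.77 and G6pc, the last enzyme of glucose release, by 1.68. Cpt1a, of fatty acid oxidation, rose by 0.36 (adjusted p = 0.043), a call lost in many fits without 1 strain. Tsc22d3, also induced by glucocorticoids, and Pck1, of glucose synthesis, did not pass (0.07 and -0.39, adjusted p = 0.813 and 0.163).

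Between the next strain groups 5 of the 20 fell (against 3.3% of all genes) and 0 rose. Pdk4 fell by 1.77 (adjusted p = 1.06e-06) and Igfbp1 by 1.97 (adjusted p = 0.000771). Among BXD strains 12 fell (against 8.11%) and among the other strains 4 (against 6.28%). In the C57BL/6J diet study 0 of the 20 were called and the median slope was -0.06. Feeding state is not in the labels, and its part in the lipogenic, cholesterol and fasting lists was not tested.

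**Figure D5:**
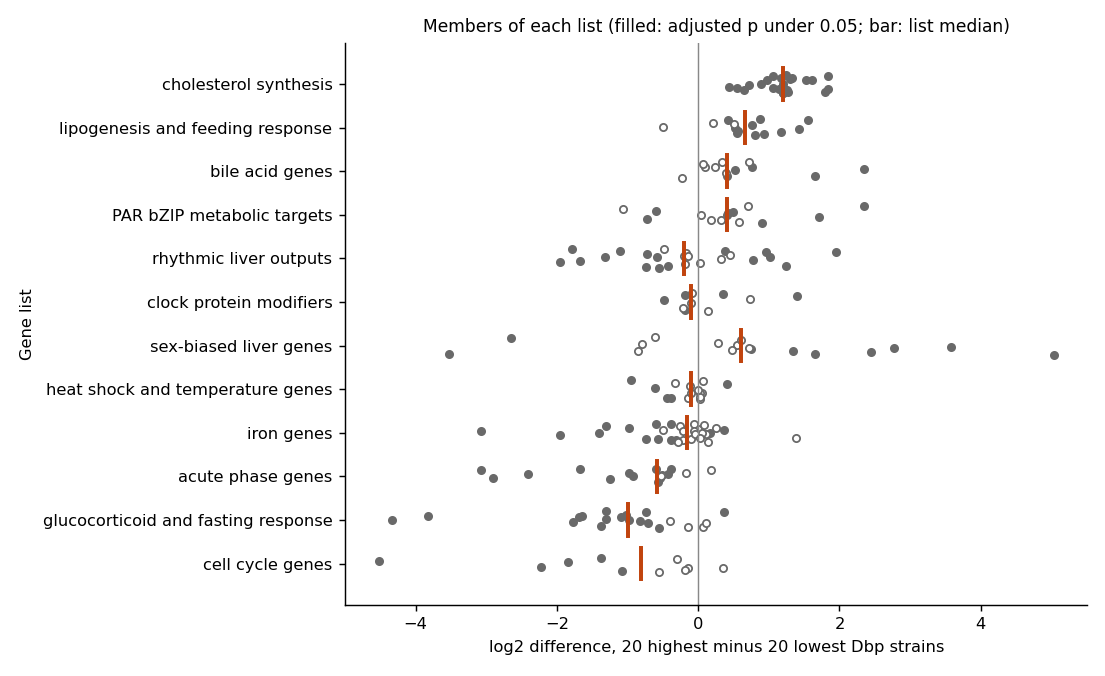
Log2 difference between the 20 high-Dbp and 20 low-Dbp strains for each tested member of 12 gene lists, filled where the adjusted p was under 0.05, with the list median as a bar. Cholesterol synthesis lies wholly to the right (median 1.2) and glucocorticoid and fasting genes mostly to the left (median -1.0).

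Acute phase genes, which the liver makes in inflammation, were lower in the high-Dbp strains: 12 of 16 fell (against 20.9% of all genes) and 0 rose, with a median of -0.58. Lcn2 ranged from 13.7 to 285 CPM (median 36.3) against 14.2 to 3105 CPM (median 147), a log2 difference of -3.07 ± 0.57 (adjusted p = 7.39e-05). Saa1 ranged from 5.85 to 408.4 CPM (median 25.6) against 6.61 to 3982 CPM (median 25.2), so its medians hardly differed and its log2 difference of -2.41 rested on few strains. Without BXD48/RwwJ, Saa1, Saa2, Saa3 and Orm2 were no longer called (adjusted p = 0.2005, 0.1039, 0.361 and 0.365), and 8 of the 16 fell (38.9% of all genes were called without it, 21.1% lower). Limma on log2(TPM + 1) called 5 lower (against 8.47%). Between the next groups 0 of 16 were called. Orm1 and Orm2, and the Saa genes, are close paralogs whose reads may be shared.

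Neutrophil markers moved with this group. The 3 with enough counts, S100a8, S100a9 and Ngp, all fell (against 20.9% of all genes), by 2.37, 2.41 and 2.50. Their list of 8 summed to 0.648 to 89.6 CPM in high-Dbp strains (median 1.87) and to 0.46 to 166 CPM in low-Dbp strains (median 7.86), and none of the 8 was at 0 in a whole group. Without BXD8/TyJ the difference of Ngp was over 1.5 times as large (-4.28). In BXD strains 0 of the 3 were called (against 16.7% of all genes), and in the other strains 4 of 4 fell (against 6.28%). The next groups had 0 of 5 called (against 6.19%). Of 12 macrophage markers 3 fell, near the 20.9% of all genes, with sums of 328 to 1185 CPM (median 522) against 395 to 1035 CPM (median 746). The count was 6 without BXD8/TyJ and 2 without BTBR T<+> tf/J or NZB/BlNJ. It was 0 in BXD strains (against 8.11% of all genes) and 8 in the other strains (against 6.28%). Limma on log2(TPM + 1) called 1 lower (against 8.47%). Of 8 endothelial markers 3 fell (against 20.9% of all genes), with sums of 171 to 498 CPM (median 342) against 234 to 611 CPM (median 418). That count was 1 without BTBR T<+> tf/J or without NZB/BlNJ. It was 0 with family as a covariate (against 17.4% of all genes) and 0 in BXD strains (against 8.11%). By limma on log2(TPM + 1) it was 1 (against 8.47%). In bulk tissue, fewer cells of a type and less RNA per cell cannot be told apart, and the part of these cells in the acute phase result was not tested.

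Of 32 iron genes, 2 rose and 11 fell, with a median of -0.15. Over all genes 17.6% rose, 20.9% fell and 38.5% were called, so the share of iron genes called was near that of all genes. Hamp, which encodes hepcidin, the hormone that limits iron entry into blood, did not pass, at 238 to 1159 CPM (median 930.0) against 330 to 1355 CPM (median 861), with a log2 difference of -0.02 (adjusted p = 0.93). Tfrc, the transferrin receptor gene, ranged from 4.84 to 16.8 CPM (median 9.23) against 8.93 to 103.9 CPM (median 27.6), a log2 difference of -1.95 ± 0.24 (adjusted p = 7.87e-08). Hmox1, which degrades heme, fell by 1.41 and Slc11a2, an iron importer, by 1.31. Several of the 11, such as Hp, Hpx, Cp and Lcn2, are also on the acute phase list. Between the next groups 1 rose and 5 fell (against 2.89% and 3.3%), Tfrc by 1.54 (adjusted p = 0.000381).

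Cell cycle genes were lower where they passed: 5 of 10 fell (against 20.9% of all genes) and 0 rose, led by Cdkn1a, which inhibits the cycle, and followed by Mki67 (-2.22), Ccna2 (-1.85), Top2a (-1.37) and Cdk1 (-1.07), which mark or drive it. Without BTBR T<+> tf/J, Top2a was at -0.75 and Cdk1 at -0.69 with its call lost (adjusted p = 0.0708), and 4 of the 10 fell (35.8% of all genes were called without it, 20.3% lower). Limma on log2(TPM + 1) called 1 higher and 2 lower. Among BXD strains 1 of 10 fell (against 8.11% of all genes), and among the other strains 1 of 12 (against 6.28%). With family as a covariate 3 of 10 fell (against 17.4%), and between the next groups 4 of 13 (against 3.3%). Of 15 heat shock and temperature genes 1 rose and 4 fell (against 17.6% and 20.9%). Rbm3 (-0.96) and Cirbp (-0.44), whose RNA rises in the cold, were among the latter, with Hspa1b (-0.61), whose call was lost in many fits without 1 strain, while Dnaja1 rose (0.41).

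Sex-biased liver genes, all measured in males, had 7 higher and 2 lower of 17 (against 17.6% and 20.9% of all genes) and a median of 0.61. Without BTBR T<+> tf/J 1 was lower. Mup7, a major urinary protein gene, ranged from 0 to 1046 CPM in high-Dbp strains (median 13.6) and from 0 to 47.2 CPM in low-Dbp strains (median 0.394), a log2 difference of 5.03 ± 1.02 (adjusted p = 0.000219). Cyp4a12a, a male-biased P450 gene, rose by 3.57 and Hsd3b5, a male-biased steroid dehydrogenase gene, by 2.78. Among strains other than BXD, 0 of 16 were called (against 11.1% of all genes), and between the next groups 1 of 17 (against 6.19%). Mup and Cyp4a12 genes have near-identical paralogs, so their separate values are uncertain.

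The 10 largest rises held mostly such paralogs. They were Mup7 (5.03), Mup1 (4.67), Mup21 (3.78), Cyp4a12a (3.57), Mup12 (3.33), Sult2a7 (3.20), Mup15 (3.07), Cyp4a12b (2.99), Mup11 (2.81) and Hsd3b5 (2.78). Of these, 0 were called between the next groups, where Mup12 and Mup15 were not tested. Without BXD29/Ty, Mup15 was at 4.75.

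Of the 10 largest falls, Cdkn1a, Pdk4, Igfbp1 and Arntl were described above. Slc4a1, an erythroid membrane protein gene (-3.90), was at -2.13 with family as a covariate and did not pass (adjusted p = 0.0661). It fell under the count filter, and so was not tested, without any one of several strains, BTBR T<+> tf/J, NZB/BlNJ, BXD8/TyJ and BXD48/RwwJ among them. Sult3a1 (-3.52) and Sult1e1 (-3.19) encode sulfotransferases, Ndufa4l2 (-3.39) a hypoxia-induced mitochondrial protein and Adcy1 (-3.15) an adenylate cyclase.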

How the data were processed

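Liver RNA was sequenced from 1 male mouse per strain, or 3 per diet in the C57BL/6J study, with a stranded mRNA kit, per the labels. Whether counting used the strand is not given in the sources used here. The submitters' processing notes name kallisto 0.46 and mm10. The authors deposited expected counts per gene, which need not be whole and were rounded to whole numbers here, and TPM for the same genes and mice, which were used for the Dbp ranking and for limma only.

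Counts were scaled with TMM factors, filtered with filterByExpr and tested with glmQLFit and glmQLFTest of edgeR 4.0.16 under R 4.3.3, two-sided, with Benjamini-Hochberg adjustment and a threshold of 0.05. CPM use the factors of all 113 ranked libraries, and log2 CPM a prior count of 2. The extreme groups, the next groups and the BXD strains alone were fitted without covariates, and the diet study with diet and log2 Dbp. Strain family was a covariate for the strains other than BXD, for the difference between BXD and other strains, and where named. The fits were tested on simulated data. Alternatives used limma 3.58.1 on log2(TPM + 1) or log2(TPM + 0.1), DESeq2 1.42.0, other scaling, filters, rankings and group sizes, strain families, and fits without 1 library. Summaries and figures used Python 3.11.15, numpy 2.4.6, pandas 2.3.3 and matplotlib 3.10.9.

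Symbols and gene coordinates came from GENCODE M21 (GRCm38), which matched 35691 of 35711 panel and 34924 of 35274 diet identifiers. Promoters are from RefSeq. The groups, lists and tests were chosen with earlier results of these data known. The rule for named genes takes all clock list genes, up to 4 called genes of every other list, the 10 largest rises and 10 largest falls passing the test (mean CPM of 1 or more), and the 8 genes most and least like Dbp over the strains in neither group, passing over predicted genes. Genes outside this rule were picked with their values in view. A few genes within the rule are not reported here.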

Additional observations from a re-analysis of the deposited data

Results flagged for a closer look

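Sult3a1, a female-biased sulfotransferase gene, had an effect of the Dbp grouping that differed between BXD and other strains. In BXD strains it ranged from 0.262 to 3.49 CPM in the high-Dbp group (median 0.665, n = 12) and from 0.470 to 268 CPM in the low-Dbp group (median 29.3, n = 8), a log2 difference of -6.18 (adjusted p = 0.000117 by edgeR). In the other strains it ranged from 0 to 26.2 CPM (median 3.58, n = 8) against 0 to 17.2 CPM (median 1.36, n = 12), a log2 difference of 0.88 (adjusted p = 0.522). The difference between these effects was -6.93 ± 1.23 (SE; adjusted p = 0.0275 by edgeR's interaction term), the only one called of 13100 genes. The highest level was in BXD22/TyJ. Related sulfotransferase genes may share reads with it.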

How the results depend on the processing

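The 5046 calls between the extreme groups became 2209 in BXD strains only, 1468 in strains other than BXD and 2396 with 10 against 10 strains, all with fewer samples. Fits without 1 strain gave 4669 to 5286 calls. The 818 calls between the next groups became 406 with strain family as a covariate. The 14 calls in the diet study became 86 with DESeq2, 41 with no filter on low counts, 3 by limma on log2(TPM + 0.1) and 4 by limma on log2(TPM + 1), and 5 to 16 without 1 mouse. The cause of these shifts was not tested. Other scaling, filters and rankings, including the ranking and the TPM fit without Klf10 and the fit without NZB/BlNJ and DBA/2J, chosen after seeing the data, stayed within 1.5 times the reported counts. Sult3a1 reversed to 0.88 in strains other than BXD. For 39 of the named genes (16 clock genes, the largest rises and falls, and Mvd, Fasn, Hamp, Tfrc and Lcn2), 630 of 666 other alternative values and 1500 of 1526 values without 1 strain kept direction and side of the threshold, and the 26 that did not were all Bhlhe40. A fit in which a gene was not tested gives no value, so the fits that lost Slc4a1 are not in these counts. Of the other genes named, Cpt1a, Hspa1b, Cdk1, Cyp3a41a, Saa1, Saa2, Saa3, Orm2 and Loxl4 also lost their calls between the extreme groups without 1 strain. No paired analysis was possible because the compared groups hold different strains, with 1 mouse each. The labels also give no replicate numbers. Dbp rests on as few as 4.84 counts in the low group, so the order of its lowest strains is imprecise.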

Other observations

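The second mouse labelled 129X1/SvJ, which was not ranked, gives the only pair of panel mice with the same strain label. Dbp was 39.4 TPM in the ranked mouse and 4.35 TPM in the other, Arntl 10.8 and 21.1 CPM, Per3 24.5 and 6.47 CPM, and Pdk4 10.3 and 22.2 CPM (CPM scaled over all 115 panel libraries). Nr1d1 was 145 and 89.1 CPM. The ranking itself set the Dbp ranges of the groups, 114 to 180 TPM for high-Dbp and 0.540 to 19.2 TPM for low-Dbp strains. On the log scale the 2 mice, of the same labelled strain and diet, lay further apart than the ends of the high-Dbp range. They lay closer together than the ends of the low-Dbp range.

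Over all 113 ranked strains, a slope on log2 Dbp was called for 5079 of 12276 genes (41.4%), Arntl at -0.82 ± 0.05 and Nr1d2 at 0.26 ± 0.02 per log2 unit. Rora, not called between the extreme groups, had a slope of -0.04 ± 0.01 (adjusted p = 0.000963 by edgeR). These strains include the 40 of the extreme groups.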
